A study of Mus musculus with 60 samples.

Results

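The 9 genes described here encode the main enzymes and transporters that make, recycle and package glutamate and GABA in the cortex, and they were chosen by name: Glud1, Glul, Got1, Got2, Slc1a2, Slc1a3, Slc17a7, Gad1 and Gad2. All 9 were among the 18088 genes measured, and all 9 passed the filter on low values. Their RNA was measured by sequencing of polyadenylated RNA from the prefrontal cortex of 60 C57BL/6J mice at postnatal day 25, and each of the 12 groups has 5 libraries. Mice were either heterozygous for the N2373K allele of Chd8 (Chd8+/N2373K, here Het) or wild type (WT), of both sexes. Chd8 encodes a chromatin remodeling protein linked to autism. Each genotype received the serotonin reuptake inhibitor fluoxetine, the mood stabilizer lithium, or vehicle alone, through the milk of the mother from postnatal day 3 to 24, that is for 3 weeks. Each drug is compared with the same vehicle libraries, so the fluoxetine and lithium comparisons within a genotype are not independent of each other. Which pups shared a mother is not stated in the labels, so a p-value speaks only of the spread among these libraries.

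Glutamate is the main excitatory transmitter of the cortex. Excitatory neurons load it into vesicles, astrocytes take it up after release and turn it into glutamine, and the glutamine returns to neurons, where it becomes glutamate again and, in inhibitory neurons, GABA. Glutamate also exchanges its carbon skeleton with the citric acid cycle, through glutamate dehydrogenase and the aspartate aminotransferases. The aminotransferases are a part of the malate-aspartate shuttle that carries reducing equivalents into the mitochondrion.

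The libraries held 24.05 M to 31.65 M reads (median 28.32 M). Chd8 averaged 2671 ± 134 normalized counts in Het and 3094 ± 91.7 in WT libraries (SD, n = 30 each), a log2 difference of -0.21 ± 0.02 (SE), and all 30 Het libraries lay below the WT mean. The libraries differed in the level of markers of other tissues and cell types. The summed level of 14 olfactory bulb markers ran from 2674 to 21123 in Het fluoxetine, 2875 to 13563 in Het lithium, 3887 to 37516 in Het vehicle, 3828 to 8346 in WT fluoxetine, 4696 to 26963 in WT lithium and 5806 to 22103 in WT vehicle libraries. Over the 60 libraries the highest of these sums was 14.03 times the lowest. For choroid plexus, oligodendrocyte and striatum markers it was 257.25, 6.64 and 3.4 times the lowest. Whether tissue carried along with the cortex gave these levels was not tested. Of the 10 excitatory neuron markers and the 12 astrocyte markers, none was at 0 in all 60 libraries, which does not show the tissue of any 1 library. In a bulk sample, fewer cells of a type and less RNA per cell cannot be told apart.

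The 9 genes covered a wide span of levels. Divided by the length of each gene's merged exons, the mean over 60 libraries was 13405 normalized counts per kb for Glul, the astrocyte enzyme glutamine synthetase. Slc17a7, which encodes the vesicular glutamate transporter of cortical excitatory neurons, followed with 8431 per kb, and Slc1a2, the main glutamate uptake carrier of forebrain astrocytes, with 7339 per kb. The ranges of these last 2 over libraries, 6337 to 10053 and 5753 to 9564, overlapped, and Glul lay above both at 11255 or more. Got1, the cytosolic aspartate aminotransferase, stood at 2858 per kb and Slc1a3, the second astrocyte uptake carrier, at 2514 per kb. Their ranges over libraries, 2350.2 to 3350.3 and 2119 to 3144, overlapped. The lowest 4 were Glud1, glutamate dehydrogenase, with 1374 per kb, Got2, the mitochondrial aspartate aminotransferase, with 1297, Gad1, the glutamate decarboxylase that supplies most GABA, with 1269, and Gad2, the decarboxylase concentrated at nerve endings, with 958. The ranges of these 4 overlapped as well. Across the 60 libraries the highest value was 1.32 times the lowest for Got2 and 2.95 times the lowest for Gad1, the steadiest and the most variable of the 9.

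Glud1 was the gene that separated the genotypes. Its enzyme interconverts glutamate and alpha-ketoglutarate in the mitochondrial matrix. Between Het and WT mice it was the only member called, meaning that its Benjamini-Hochberg adjusted p was under 0.05 over the 17807 genes tested, and it was lower in Het under each treatment. The share of all tested genes called was 7.33% under fluoxetine, 0.0393% under lithium, 0.0562% under vehicle and 1.54% over all treatments. The share called lower in Het was 3.88%, 0.0393%, 0.0337% and 0.915% in the same 4 comparisons.

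Under fluoxetine, Glud1 had 4962, 6419, 4704, 4999.7 and 4721 normalized counts in Het females and 5271, 5093, 4580.2, 4909 and 4626 in Het males, against 6873, 7314, 6869.7, 6394 and 6912 in WT females and 6968, 6873, 7134, 6752 and 6241 in WT males. Het female replicate 2 alone reached the WT range. Het minus WT, the log2 difference was -0.45 ± 0.05 (SE, n = 10 each; limma adjusted p = 1.31e-08).

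Under lithium, Glud1 had 4626, 4817, 5085, 5112 and 4739 normalized counts in Het females and 4742.5, 4829, 4652, 4661 and 4667 in Het males, against 6541.5, 6535, 6942, 6464 and 6799 in WT females and 6638, 6334, 6840.4, 6667 and 6559.9 in WT males. The 10 Het libraries all lay below the 10 WT libraries. Their log2 difference was -0.47 ± 0.05 (n = 10 each; limma adjusted p = 2.71e-09).

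Under vehicle, Glud1 had 5056, 4823, 5292, 5257 and 4896 normalized counts in Het females and 4975, 5118, 5083, 4922 and 4984 in Het males, against 5177, 6759, 6658.5, 6596 and 6774 in WT females and 6713, 6592, 6702.5, 4842 and 7044 in WT males. WT female replicate 1 and WT male replicate 4 lay within the Het range. Here the log2 difference was -0.33 ± 0.05 (n = 10 each; limma adjusted p = 3.04e-05). When the 16 libraries highest in olfactory bulb markers were left out it was -0.28 ± 0.06 (limma adjusted p = 0.0613), and the call was lost. That left 3 Het and 3 WT females and 2 Het and 4 WT males, with both WT libraries of the Het range among them. Over the 60 libraries Glud1 had a Pearson r of -0.04 with the score of the olfactory bulb markers. The cause of the lost call was not tested.

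**Figure D1:**
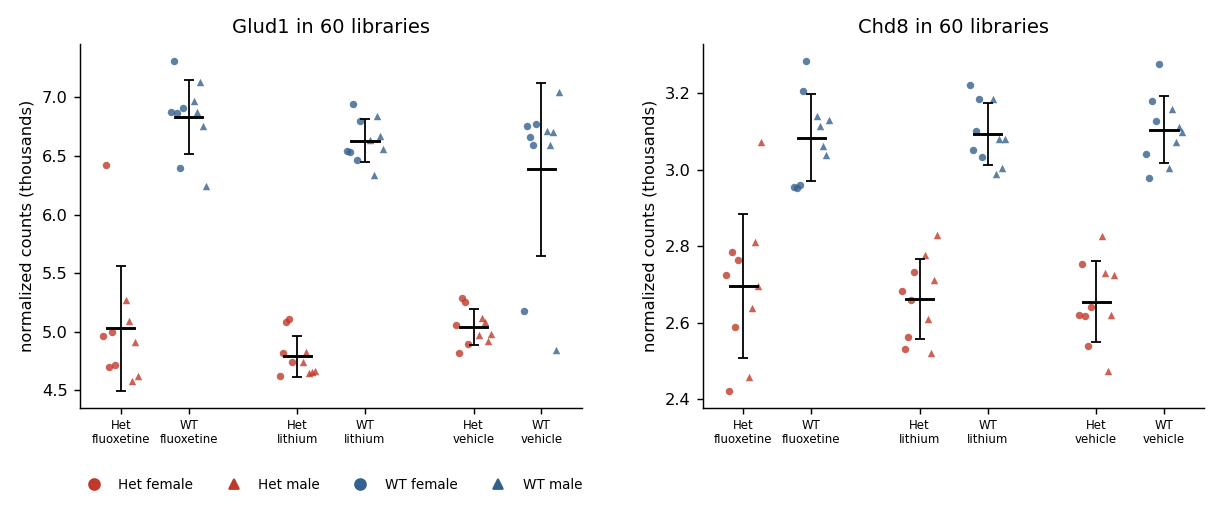
Normalized counts of Glud1 (left) and Chd8 (right) in each of the 60 libraries, Het (red) beside WT (blue) under fluoxetine, lithium and vehicle; circles are females, triangles males, black lines the mean and SD of 10 libraries. For Glud1, 29 Het and 2 WT libraries lie between 4580.2 and 5292 and 28 WT and 1 Het library between 6241 and 7314, with none between those ranges.

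Over all treatments, Glud1 averaged 4954 ± 345 normalized counts in Het and 6617 ± 497 in WT libraries (SD, n = 30 each), which is 25.1% lower in Het (log2 difference -0.42 ± 0.03, limma adjusted p = 1.38e-16). It had the smallest p of all genes tested in this comparison, Chd8 included. The 95% interval of the log2 difference ran from -0.47 to -0.36, while that of Chd8 ran from -0.25 to -0.18. All 30 Het libraries lay below the WT mean.

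The levels of Glud1 fell into 2 separate ranges, and 3 of the 60 libraries were in the range of the other genotype. In those same 3 libraries Chd8 had 2421 normalized counts in Het fluoxetine female replicate 2, against 3041 in WT vehicle female replicate 1 and 3111 in WT vehicle male replicate 4. The other 29 Het libraries had 2458 to 3072 of Chd8 and the other 28 WT libraries 2951 to 3285. The lowest and the highest of the 3 values thus lay outside the range of the other genotype, and the 3041 lay where the 2 ranges overlap. Without the 3 libraries the log2 difference of Glud1 was -0.49 ± 0.03 under fluoxetine, -0.47 ± 0.03 under lithium, -0.42 ± 0.03 under vehicle and -0.46 ± 0.02 over all treatments. These libraries were picked by their level of Glud1 after it was seen, so a larger difference without them follows from the choice.

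Glud1 lies on chromosome 14 (GRCm38, 34310727 to 34345265, plus strand), the chromosome of Chd8, which lies 17.89 Mb further on. Of the 19 other genes tested with a start within 1 Mb of that of Glud1, 2 were called between Het and WT over all treatments, both lower in Het, and they are its nearest tested neighbors beyond its end. Sncg, the gene of gamma-synuclein, begins 25.0 kb beyond the end of Glud1 and averaged 17.7 ± 7.4 normalized counts in Het and 32.5 ± 7.7 in WT libraries (SD, n = 30 each; log2 difference -0.89 ± 0.12, limma adjusted p = 8.98e-07). It was near the limit of detection, at 7.5 to 44.6 normalized counts (median 24.1) over the 60 libraries. Mmrn2, which encodes an endothelial matrix protein, begins 30.2 kb beyond the end of Glud1 and averaged 90.0 ± 15.3 and 117 ± 22.8 in the same groups (log2 difference -0.37 ± 0.06, limma adjusted p = 0.000275). Sncg and Mmrn2 were both called under fluoxetine and under lithium. Under vehicle neither was: Sncg had -0.845 ± 0.199 (limma adjusted p = 0.105) and Mmrn2 -0.09 ± 0.11 (limma adjusted p = 0.876). For Mmrn2 the difference was -0.50 ± 0.11 under fluoxetine and -0.52 ± 0.11 under lithium. In Het mice Mmrn2 itself fell under both drugs (-0.38 ± 0.11 and -0.33 ± 0.11, both called). Over all treatments the other 17 genes had log2 differences from -0.25 to 0.23. Shld2, whose end lies just before the start of Glud1 on the chromosome, had 0.14 ± 0.04 (limma adjusted p = 0.0583).

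In the 3 libraries Sncg was near the median of the other genotype, while Glud1 was within its range. Sncg stood at 34.8 normalized counts in Het fluoxetine female replicate 2, against 12.7 in WT vehicle female replicate 1 and 17.2 in WT vehicle male replicate 4. The other Het libraries had 7.5 to 40.3 of Sncg (median 15.3) and the other WT libraries 19.9 to 44.6 (median 35.3). The 34.8 of the Het library thus lay within both ranges, and the values of both WT libraries lay below the WT range. Mmrn2 was low in all 3, with 73.6 in the Het library and 85.4 and 81.8 in the WT libraries, beside medians of 88.2 in Het and 120.8 in WT. Entpd4, a nucleotide-hydrolysing enzyme on the far side of Chd8 (chromosome 14, 69337174 to 69367270), averaged 2752 ± 155 in Het and 3617 ± 331 in WT libraries (SD, n = 30 each), with 2648 in the Het library and 3522 and 3787 in the WT libraries. The other Het libraries had 2541 to 3133 of Entpd4 and the other WT libraries 2664 to 3946, so those ranges overlap. In WT lithium male replicate 5, WT vehicle male replicate 5 and WT fluoxetine female replicate 2 it was 2664, 2752 and 2780, in the Het range, while their Glud1 was in the WT range. Its value is uncertain, since the mouse genome holds a near-identical copy. The genes compared in these 3 libraries were chosen after their values were seen, and the part of chromosomal position in the difference was not tested.

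**Figure D2:**
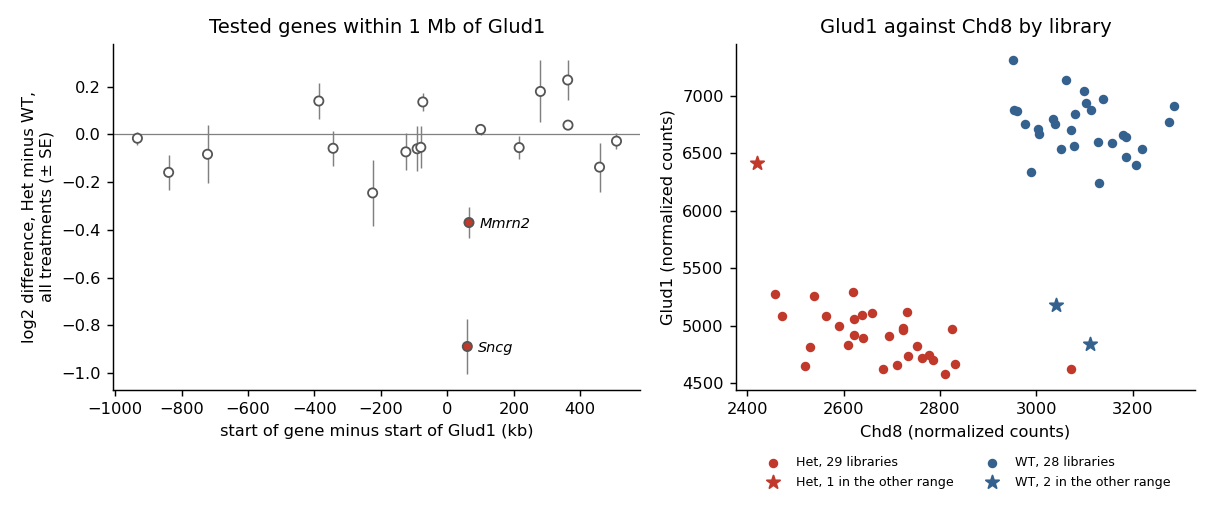
Left: log2 difference Het minus WT over all treatments (± SE) of the 19 tested genes within 1 Mb of Glud1, against the distance of their starts in kb; filled points (Sncg and Mmrn2) were called. Right: Glud1 against Chd8 (normalized counts) in each library, Het red and WT blue, where stars mark the 3 libraries whose Glud1 lay in the range of the other genotype.

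Over the whole of chromosome 14, 20 of 636 tested genes were called between Het and WT over all treatments (3.14%), 7 higher and 13 lower in Het, and on the other chromosomes 254 of 17171 (1.48%). The called genes nearest to Glud1 before its start were Actr8, 4.33 Mb away and higher in Het (1210.3 ± 79.3 against 1143 ± 54.6 normalized counts, SD, n = 30 each), then Psmd6 and Pxk. Without the 16 bulb-rich libraries Actr8 and Psmd6 were not called, with log2 differences about as large (0.08 each), and Psmd6 was not called without any of 7 of the 60 libraries. Pxk lost its call in 3 other settings and without any of 31 of the 60 libraries. The called genes nearest beyond its end were Sncg, Mmrn2 and Chd8 itself. The 3 genes whose levels followed Glud1 most closely over the 60 libraries were all on chromosome 14 too: Sncg (Pearson r = 0.77), Entpd4 (0.73) and Chd8 (0.71). Once the mean of each group was removed, the r with Sncg was 0.44 and that with Chd8 was -0.36, so no likeness to Chd8 was seen within groups. Both values include the 3 libraries whose Glud1 was in the range of the other genotype, and 1 of these had the lowest Chd8 of the 60 (2421). They were not computed without those 3 libraries.

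The 5′ flanks of Glud1 and of the 2 aminotransferase genes are shown because these 3 members carry most of the calls. All 9 members matched the RefSeq promoter table (GRCm38.p6). Each sequence runs 5′ to 3′ up to the base before the most upstream annotated start, 250 bases for Glud1 and Got1 and 104 for Got2. The Got2 stretch is shorter because its entry begins 104 bases before that start. Bases outside these stretches were not searched. Capitals mark matches, on either strand, to 5 motifs that were searched: the GC box GGGCGG, the CCAAT box CCAAT, the E-box CACGTG, the palindromic NRF1 motif and the cAMP response element TGACGTCA.
Glud1, chr14:34310477-34310726, plus strand: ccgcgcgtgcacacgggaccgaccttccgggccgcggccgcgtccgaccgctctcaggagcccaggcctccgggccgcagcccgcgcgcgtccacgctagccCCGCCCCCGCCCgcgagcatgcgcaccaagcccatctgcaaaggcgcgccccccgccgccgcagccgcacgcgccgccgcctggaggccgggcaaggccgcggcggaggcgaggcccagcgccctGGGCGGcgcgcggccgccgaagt
Got1, chr19:43524606-43524855, minus strand: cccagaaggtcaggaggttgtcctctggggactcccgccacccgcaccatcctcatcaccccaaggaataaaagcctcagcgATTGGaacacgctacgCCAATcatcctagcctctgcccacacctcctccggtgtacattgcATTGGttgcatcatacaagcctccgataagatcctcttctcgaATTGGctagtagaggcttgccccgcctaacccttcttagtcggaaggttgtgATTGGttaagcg
Got2, chr8:95888548-95888651, minus strand: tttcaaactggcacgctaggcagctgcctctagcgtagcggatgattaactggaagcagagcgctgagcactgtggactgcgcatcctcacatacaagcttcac
The flank of Glud1 was 82.0% G and C and held 3 GC boxes, and that of Got1 was 54.4% G and C and held 5 CCAAT boxes. The 104 bases of Got2 were 53.8% G and C and held no match. Of all 32851 promoters in the table, 32.7% held a GC box and 33.8% a CCAAT box in 250 bases, and 25.1% and 19.4% did in 104 bases. The E-box, NRF1 motif and cAMP response element had no match in these windows and occurred in 6.0%, 0.8% and 1.5% of the 250-base windows.

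None of the other 8 members was called between Het and WT mice under any treatment or over all 3. Slc1a2 came nearest over all treatments, with 75554 to 124339 normalized counts (median 90411) in Het and 84244 to 125607 (median 99393) in WT libraries. The log2 difference was -0.115 ± 0.038 (limma adjusted p = 0.115, unadjusted p = 0.00411), and 22 of 30 Het libraries lay below the WT mean. With quantile normalization the difference was nearer 0 (-0.02). For Glul, Got1, Got2, Slc1a3 and Slc17a7 over all treatments, log2 differences ran from -0.02 to 0.01, and their 95% intervals lay within -0.08 to 0.07.

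Gad1 was higher on average in Het than in WT libraries under fluoxetine, without passing the test: 8611 to 14636 normalized counts (median 11292) in Het and 7337 to 9821 (median 7951) in WT libraries. All 10 Het libraries lay above the WT mean and the ranges overlapped. The log2 difference was 0.40 ± 0.13 (limma adjusted p = 0.0508), while edgeR (adjusted p = 0.0496) and DESeq2 (0.0443) on the whole reads called it, as did the fit in 6 of the 20 cases with 1 of the libraries compared left out. Gad2 had 5142 to 9301 (median 6032) in Het and 4656 to 7378 (median 5196) in WT libraries, a log2 difference of 0.23 ± 0.10 (limma adjusted p = 0.128). The olfactory bulb holds many cells that make GABA, and the level of Gad1 followed the score of the 14 olfactory bulb markers over the 60 libraries (Pearson r = 0.82), a description of libraries that share their dissection. The summed bulb markers had a median of 8630 in Het fluoxetine and 5003 in WT fluoxetine libraries. With olfactory bulb and oligodendrocyte scores in the fit the Gad1 difference was 0.16 ± 0.08 (limma adjusted p = 0.189), and once the 16 bulb-rich libraries were left out it was 0.19 ± 0.09 (limma adjusted p = 0.256). For Gad2 the r with the bulb score was 0.46 and that with a striatum score was 0.74. Slc17a7 ran the other way, with r = -0.63 with the bulb score and 0.81 with the excitatory neuron score.

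**Figure D3:**
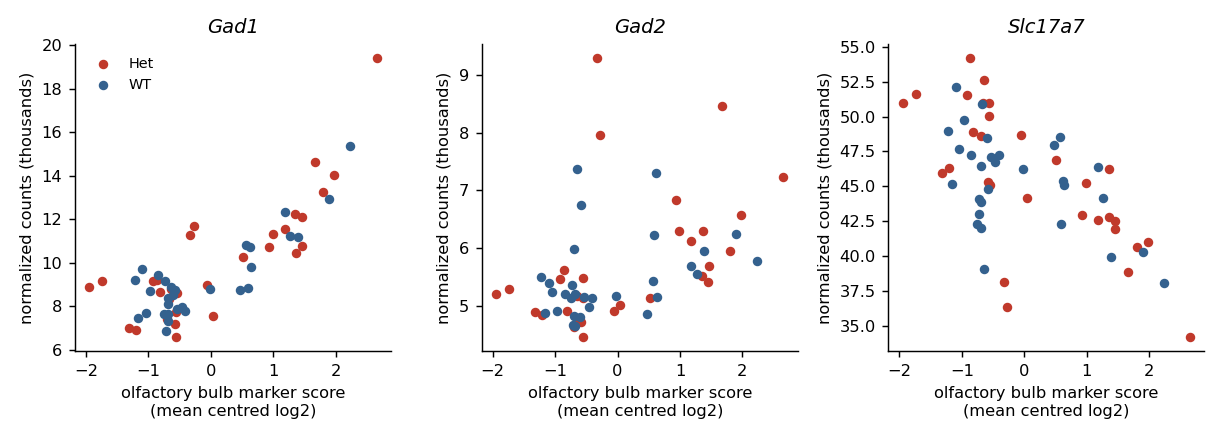
Normalized counts of Gad1, Gad2 and Slc17a7 in each of the 60 libraries against the olfactory bulb marker score (mean of 14 centred log2 values), Het red and WT blue. Gad1 is higher where the score is higher (r = 0.82), Gad2 less so (r = 0.46), and Slc17a7 is lower there (r = -0.63).

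The drugs were tested against vehicle within each genotype. The 2 aspartate aminotransferases, which pass an amino group between glutamate and oxaloacetate, rose in Het mice under both drugs. The share of all genes called in either direction was 32.9% for fluoxetine and 9.14% for lithium in Het mice, and 8.2% for fluoxetine and 2.97% for lithium in WT mice. Called higher were 16.9% for fluoxetine in Het, 5.3% for lithium in Het and 1.9% for lithium in WT, and 3.84% were called lower for lithium in Het. Of the 9 members, 2 were called for fluoxetine in Het (both higher), 3 for lithium in Het (2 higher, 1 lower), none for fluoxetine in WT and 1 for lithium in WT (higher). With a background of 32.9%, 2 of 9 is no more than the share of all genes for fluoxetine in Het.

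Got1 had 7107 to 8507 normalized counts (median 7535.5) in Het fluoxetine and 6590.0 to 8114 (median 7464) in Het lithium libraries, against 5967 to 7452 (median 6585) in Het vehicle libraries. All 10 fluoxetine and 9 of 10 lithium libraries lay above the vehicle mean, and the ranges overlapped. The log2 difference was 0.20 ± 0.04 for fluoxetine (limma adjusted p = 0.000278) and 0.15 ± 0.04 for lithium (limma adjusted p = 0.0185; n = 10 in each group). Without Het vehicle female replicate 3 the lithium call was lost (limma adjusted p = 0.0525), and so it was in 4 other settings, among them the fit of only the groups compared (limma adjusted p = 0.0557). In WT mice Got1 was not called: it had 6748 to 8271 (median 7091) under fluoxetine and 6606 to 7901 (median 7438) under lithium, against 6264 to 7548 (median 7109) under vehicle, with log2 differences of 0.06 ± 0.04 and 0.09 ± 0.04.

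Got2 had 5944.5 to 7213 normalized counts (median 6379.8) in Het fluoxetine and 6153 to 6872 (median 6697) in Het lithium libraries, against 5452 to 6419.6 (median 5752) in Het vehicle libraries. Every library of both drug groups lay above the vehicle mean. The log2 difference was 0.15 ± 0.03 for fluoxetine (limma adjusted p = 0.000142) and 0.18 ± 0.03 for lithium (limma adjusted p = 9.88e-05). Got2 was also the 1 member that rose in WT mice, under lithium, with 6035 to 6766 (median 6511) against 5605 to 6289 (median 5918.5) under vehicle, a log2 difference of 0.12 ± 0.03 (limma adjusted p = 0.0142) with all 10 lithium libraries above the vehicle mean. Under fluoxetine in WT it had 5871 to 6776 (median 6170.2), a difference of 0.06 ± 0.03 (limma adjusted p = 0.182). The Got2 calls held in each of the 13 other settings tried and with each of the libraries compared left out in turn.

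Whether the drugs act differently in the 2 genotypes was tested as an interaction. The fluoxetine effect in Het minus that in WT was 0.15 ± 0.06 for Got1 (95% interval 0.02 to 0.27, limma adjusted p = 0.155) and 0.08 ± 0.04 for Got2 (-0.001 to 0.169, adjusted p = 0.242). For lithium it was 0.06 ± 0.06 for Got1 (-0.06 to 0.18) and 0.06 ± 0.04 for Got2 (-0.03 to 0.14), both with an adjusted p of 0.99. Over all genes 1.7% were called for the fluoxetine interaction and 0% for the lithium one. No difference between genotypes in the response of either gene passed the test, and the intervals leave room for differences of the size of the effects themselves.

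**Figure D4:**
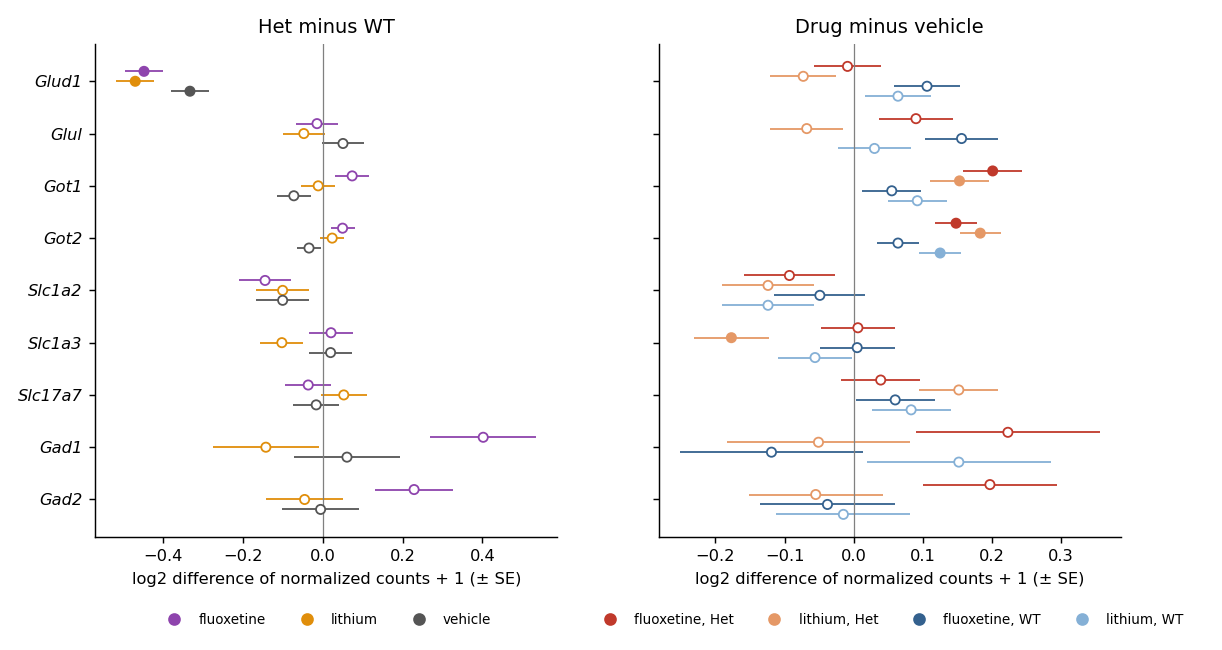
Log2 differences (± SE) of the 9 genes, Het minus WT by treatment (left) and drug minus vehicle by genotype (right), both sexes averaged, 10 libraries a group; filled points have an adjusted p under 0.05. Glud1 is the only filled gene on the left, and Got1, Got2 and Slc1a3 are the filled ones on the right.

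Got1 and Got2 rose together with other genes of the malate-aspartate shuttle. The shuttle couples Got1 and Mdh1, the cytosolic malate dehydrogenase, with Got2 and Mdh2, its mitochondrial counterparts, through the carriers Slc25a11, for alpha-ketoglutarate and malate, and Slc25a12 or Slc25a13, for aspartate and glutamate. Of these 7 genes, 6 were called higher for fluoxetine in Het and 5 for lithium in Het, none for fluoxetine in WT and 1, Got2, for lithium in WT. Of all genes tested 16.9%, 5.3% and 1.9% were called higher for fluoxetine in Het, lithium in Het and lithium in WT. For fluoxetine in WT 560 of 17807 were called higher. The 7 genes had a median log2 difference of 0.20, 0.15, 0.06 and 0.10 in the 4 comparisons, beside 0.01 or less in size over all genes tested. These 7 were grouped after their values were seen, so the counts are a description. Slc25a13 was near the limit of detection, at 16.9 to 61.5 normalized counts, and was not called.

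Mdh1 had 17749 to 21867 normalized counts (median 19075) in Het fluoxetine and 16239 to 20262 (median 18271.5) in Het lithium libraries, against 14166 to 19899 (median 15767) in Het vehicle libraries, with log2 differences of 0.27 ± 0.05 (limma adjusted p = 6.18e-05) and 0.185 ± 0.052 (limma adjusted p = 0.0186). All 10 libraries of each drug lay above the vehicle mean. Mdh2 had 6209 to 7618 (median 6729) and 6452 to 7544 (median 7068) in the drug groups, against 5698 to 7364 (median 6253.5), with differences of 0.14 ± 0.04 and 0.175 ± 0.038 (limma adjusted p = 0.00385 and 0.00228). For Slc25a12 the differences were 0.22 ± 0.04 for fluoxetine and 0.14 ± 0.04 for lithium, and for Slc25a11 they were 0.26 ± 0.05, called, and 0.15 ± 0.05, not called (limma adjusted p = 0.0635). The lithium calls of Mdh1 and Slc25a12 were lost without Het vehicle female replicate 3 or Het vehicle male replicate 1. Without the 16 bulb-rich libraries the lithium calls of Mdh1, Mdh2 and Slc25a12 and the fluoxetine call of Mdh2 were lost.

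**Figure D5:**
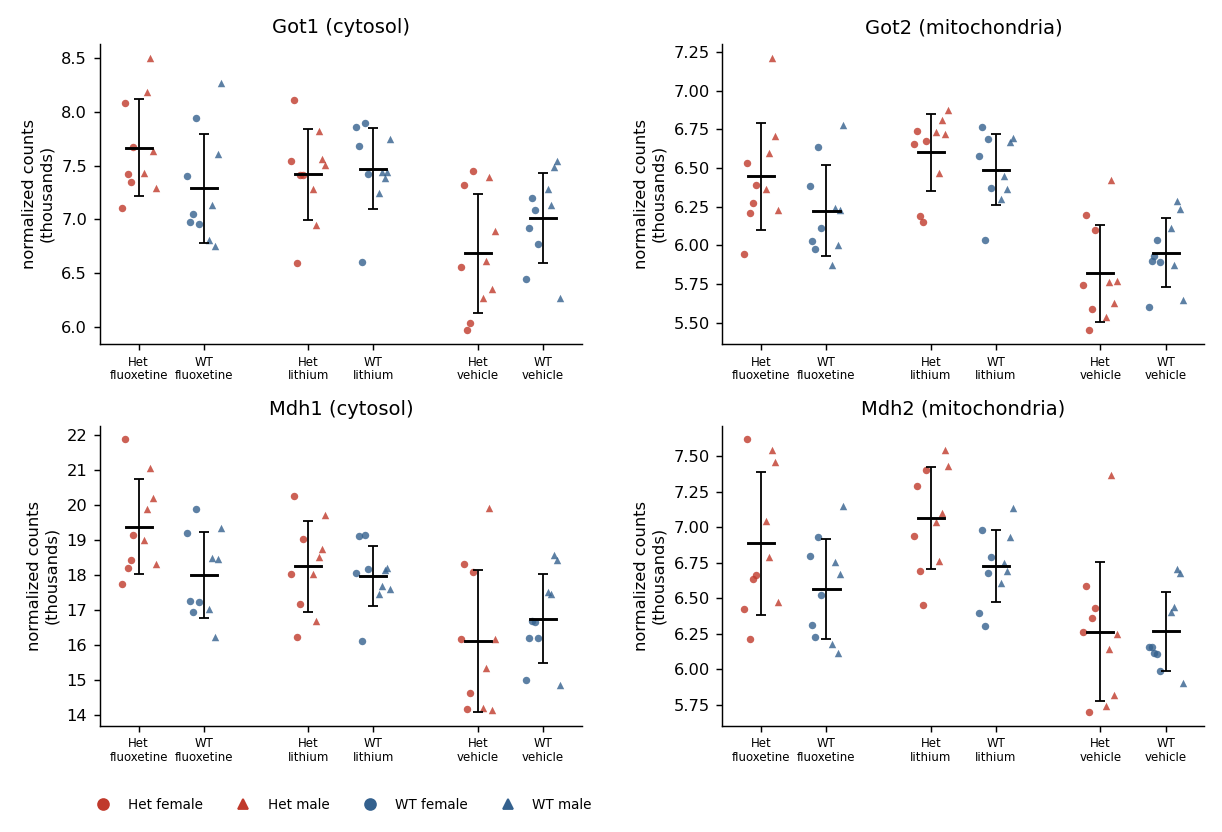
Normalized counts of the 2 aspartate aminotransferases (top) and the 2 malate dehydrogenases (bottom) in each of the 60 libraries, Het (red) beside WT (blue) under fluoxetine, lithium and vehicle; circles are females, triangles males, black lines the mean and SD of 10 libraries. For Got1, Got2 and Mdh1 the Het vehicle group has the lowest mean, and for Mdh2 the means of Het vehicle and WT vehicle are nearly equal. In all 4 panels the Het drug groups lie above the Het vehicle group with overlapping ranges.

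Over the 60 libraries the gene most like Got1 was Mdh1 (Pearson r = 0.92), then Got2 (0.88) and Map7d2 (0.86). The gene most like Got2 was Mdh2 (0.89), then Pgam1 (0.89), a glycolytic enzyme, and Got1. Within groups the r was 0.89 for Got1 with Mdh1, 0.83 for Got2 with Mdh2 and 0.90 for Got1 with Got2, so the likeness was also there among replicates. Both were lower where the markers of some other cell types were higher: Got1 had r = -0.77 with the score of 12 astrocyte markers, -0.73 with that of 7 endothelial, -0.64 with that of 7 leptomeningeal and -0.59 with that of 9 microglial markers. Got2 had -0.72, -0.66, -0.61 and -0.57 with the same scores. With the excitatory neuron score r was 0.31 for Got1 and 0.30 for Got2, and with the other 5 scores it lay between -0.27 and 0.20.

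For fluoxetine in Het, 3 of 12 astrocyte markers were called lower and 1 higher, and called lower were 4 of 7 endothelial, 5 of 7 leptomeningeal and 4 of 9 microglial markers. Of all genes 32.9% were called, 16.9% higher and the rest lower. Of the other lists, 3 of 10 excitatory neuron markers were called lower and 1 higher, and 1 of 10 interneuron markers each way. Called higher were 2 of 11 oligodendrocyte and 3 of 10 striatum markers, and no olfactory bulb or choroid plexus marker was called. For lithium in Het, 2 of 12 astrocyte, 0 of 7 endothelial, 1 of 7 leptomeningeal and 2 of 9 microglial markers were called, all of these lower, beside 3.84% of all genes called lower and 9.14% in either direction. There 3 of 10 interneuron markers were called lower and 2 higher, 1 of 10 excitatory neuron markers was called higher, and none of the remaining lists. The summed astrocyte markers ran from 28059 to 38741 in Het fluoxetine and 29860.1 to 39511 in Het lithium libraries, against 32501 to 41116 in Het vehicle libraries. The summed endothelial markers ran from 6521 to 9207 and from 7135 to 8726 in the drug groups, against 7143 to 10659. With the astrocyte and endothelial scores in the fit, an alternative chosen after seeing the data, the Got1 difference was 0.13 ± 0.03 for fluoxetine in Het (limma adjusted p = 0.0019) and 0.08 ± 0.03 for lithium (adjusted p = 0.107, the call lost). Got2 kept its calls, at 0.10 ± 0.02 and 0.13 ± 0.02 (limma adjusted p = 0.000587 and 8.29e-05), and at 0.11 ± 0.02 for lithium in WT, and was called for fluoxetine in WT too. Mdh1 and Slc25a12 lost their lithium calls. The part of other cell types in these differences was not tested beyond this fit.

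The astrocyte members did not follow the aminotransferases. Slc1a3 fell under lithium in Het mice, where it had 18086 to 21861 normalized counts (median 19251), against 19693 to 26841 (median 21706) under vehicle. All 10 lithium libraries lay below the vehicle mean. The log2 difference was -0.18 ± 0.05 (limma adjusted p = 0.03). With the astrocyte and endothelial scores in the fit it was -0.07 ± 0.03 (limma adjusted p = 0.181), not called, and the call was also lost with the bulb and oligodendrocyte scores and without the 16 bulb-rich libraries. It was lost without Het lithium female replicate 1, 2 or 5, Het lithium male replicate 4 or 5, Het vehicle female replicate 3 or 4, or Het vehicle male replicate 1, with adjusted p up to 0.0943 among the 20 libraries compared. In WT mice under lithium the difference was -0.06 ± 0.05, and the interaction was -0.12 ± 0.08 (95% interval -0.275 to 0.032, limma adjusted p = 0.99). Under fluoxetine the difference of Slc1a3 was 0.006 ± 0.054 in Het and 0.005 ± 0.054 in WT.

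Slc1a2 was not called in any comparison. Its log2 difference under lithium was -0.12 ± 0.07 in both genotypes, with 82085 to 98793 normalized counts (median 87756) in Het lithium against 77315 to 124339 (median 99488) in Het vehicle libraries, and 86767 to 102382 (median 98014) in WT lithium against 84244 to 125607 (median 102402) in WT vehicle libraries. Glul had 41978 to 55104 normalized counts (median 47802) in WT fluoxetine against 39233 to 48109.5 (median 41380.2) in WT vehicle libraries, a log2 difference of 0.16 ± 0.05 that missed the threshold (limma adjusted p = 0.0542). DESeq2 called it, and so did a fit of only the groups compared, the fit with astrocyte and endothelial scores and 6 of the 20 fits with 1 of the libraries compared left out. In Het mice it was 0.09 ± 0.05 for fluoxetine and -0.07 ± 0.05 for lithium. The Het fluoxetine difference was 0.19 ± 0.04 with astrocyte and endothelial scores in the fit (limma adjusted p = 0.00114, called) and -0.01 with quantile normalization. Over the 60 libraries Slc1a3 followed Slc1a2 (Pearson r = 0.67) and Glul (0.71), and the r with the astrocyte score was 0.64 for Slc1a2, 0.75 for Slc1a3 and 0.56 for Glul. The genes most like them were Gpm6b for Slc1a2 (0.86), Suclg2 for Slc1a3 (0.85) and Aldoc for Glul (0.82).

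Slc17a7 was not called either. It had 36360 to 52646 normalized counts (median 49482) in Het lithium against 34169 to 48604 (median 43569.7) in Het vehicle libraries, a log2 difference of 0.15 ± 0.06 (limma adjusted p = 0.0828). With quantile normalization, and without Het lithium female replicate 4 or Het vehicle male replicate 3, that difference was called, and without the 16 bulb-rich libraries it was 0.07 ± 0.06. In WT mice it was 0.08 ± 0.06 under lithium, and under fluoxetine it was 0.04 ± 0.06 in Het and 0.06 ± 0.06 in WT.

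Neither Gad1 nor Gad2 was called for a drug in the main fit, but for fluoxetine in Het some alternatives called them. Gad1 had 8611 to 14636 normalized counts (median 11292) in Het fluoxetine and 6569.8 to 12219 (median 8868) in Het lithium libraries, against 6920 to 19404 (median 9015) in Het vehicle libraries, with log2 differences of 0.22 ± 0.13 and -0.05 ± 0.13. The highest of them, Het vehicle male replicate 1, also had the highest olfactory bulb score of the 60 libraries (2.66), and without it the fluoxetine difference was 0.34 (limma adjusted p = 0.0285), called. Without the 16 bulb-rich libraries it was 0.39 ± 0.11 (limma adjusted p = 0.00959), with 2 or 3 libraries of each sex left in both groups, and with the bulb and oligodendrocyte scores in the fit it was 0.26 ± 0.07 (limma adjusted p = 0.00528). Gad2 had differences of 0.20 ± 0.10 for fluoxetine and -0.06 ± 0.10 for lithium in Het. In WT mice the differences of both genes ran from -0.12 to 0.15. For Gad2 the fluoxetine difference in Het was 0.35 ± 0.13 without the 16 bulb-rich libraries (limma adjusted p = 0.0594), and it was called without Het vehicle female replicate 2 (limma adjusted p = 0.0498). Some uncalled differences changed direction with the bulb libraries or scores. Without the 16 libraries the lithium difference in Het was 0.29 ± 0.09 for Gad1 (limma adjusted p = 0.0701) and 0.12 ± 0.12 for Gad2. With the bulb and oligodendrocyte scores that of Gad1 was 0.15 ± 0.075, and the fluoxetine difference in WT was 0.11 ± 0.08 for Gad1 and 0.10 ± 0.085 for Gad2. The part of olfactory bulb tissue in these values was not tested beyond these alternatives. The genes most like Gad1 were Rab37 (Pearson r = 0.87), Tshz1 and Kcnip1, and those most like Gad2 were Spock3 (0.86), Slc35d3 and Sox1ot.

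Glud1 itself did not respond to either drug beyond the spread. Its log2 difference from vehicle in Het was -0.01 ± 0.05 for fluoxetine and -0.07 ± 0.05 for lithium, and in WT it was 0.11 ± 0.05 and 0.06 ± 0.05. The WT vehicle group holds 2 of the 3 libraries in the range of the other genotype, and without the 3 the WT differences were 0.02 ± 0.03 and -0.02 ± 0.03.

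Another 41 genes that supply, carry or break down glutamate, glutamine, aspartate and GABA were listed as the surroundings of the 9. Het and WT differed in none of them under lithium, under vehicle or over all treatments, and in 7 under fluoxetine, 4 higher and 3 lower in Het. For fluoxetine against vehicle 20 were called in Het, 11 higher and 9 lower, and none in WT. For lithium 11 were called in Het, 8 higher and 3 lower, and 3 in WT, 1 higher and 2 lower. Beside these counts of 41, 7.33% of all genes were called between Het and WT under fluoxetine, 3.88% lower. The shares were 0.0393% under lithium, 0.0562% under vehicle and 1.54% over all treatments. For fluoxetine against vehicle 32.9% were called in Het, 16.9% higher, and 8.2% in WT. For lithium 9.14% were called in Het, 5.3% higher and 3.84% lower, and 2.97% in WT, 1.9% higher. The median log2 difference of the 41 lay between -0.01 and 0.02 in all 8 comparisons, near that of all genes. The 7 called between Het and WT under fluoxetine were Folh1, Asns, Abat and Slc25a12, higher in Het with log2 differences of 0.39, 0.18, 0.17 and 0.13, and Slc38a5, Slc1a4 and Gpt, lower with -0.515, -0.19 and -0.31. All 7 lost their call with astrocyte and endothelial scores in the fit, when only the compared groups were fitted, and without the 16 bulb-rich libraries. Gpt was the 1 of them that was called with each of the libraries compared left out in turn.

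Among the supply enzymes, Gpt, a cytosolic alanine aminotransferase, had 137 to 220 normalized counts (median 187.5) in Het fluoxetine against 215 to 315 (median 241) in Het vehicle libraries, a log2 difference of -0.46 ± 0.08 (limma adjusted p = 1.83e-05). It was the 1 gene of the 41 whose fluoxetine effect differed between the genotypes by the test of the interaction (-0.48 ± 0.11, limma adjusted p = 0.0268). Asns, asparagine synthetase, rose in Het under fluoxetine (0.27 ± 0.05) and lithium (0.17 ± 0.05), and so did Bcat1, the cytosolic transaminase of branched-chain amino acids (0.30 ± 0.07 and 0.26 ± 0.07). Aldh18a1, an enzyme of proline synthesis from glutamate, rose under lithium in WT (0.18 ± 0.04) and fell under fluoxetine in Het (-0.19 ± 0.04).

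Among the carriers, Slc7a11, which exchanges cystine for glutamate, averaged 1745 ± 176 normalized counts in Het fluoxetine and 1742 ± 143 in Het lithium against 2350.0 ± 378 in Het vehicle libraries, and 1750.3 ± 169 in WT lithium against 2198 ± 314 in WT vehicle libraries (SD, n = 10 each). These 3 differences, -0.42 ± 0.08, -0.42 ± 0.08 and -0.32 ± 0.08, were called (limma adjusted p = 3.94e-05, 0.000493 and 0.0138). Slc1a1, the neuronal uptake carrier for glutamate, rose in Het under fluoxetine (0.14 ± 0.03) and lithium (0.10 ± 0.03), and Slc25a22, a mitochondrial glutamate carrier, rose in Het under lithium (0.24 ± 0.05), while Oat, the mitochondrial ornithine aminotransferase, fell there (-0.13 ± 0.04). Slc38a5, a glutamine carrier, fell in Het under fluoxetine (-0.97 ± 0.16, 90.4 ± 30.4 against 173 ± 35.6 normalized counts).

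Rimklb, an enzyme that makes the dipeptide of N-acetylaspartate and glutamate, fell in the same 3 comparisons as Slc7a11, with log2 differences of -0.22 ± 0.06, -0.35 ± 0.06 and -0.20 ± 0.06. Folh1, the peptidase that splits that dipeptide, rose in Het under fluoxetine (0.46 ± 0.12). Abat, which degrades GABA, rose there as well (0.15 ± 0.06). The WT lithium call of Rimklb was lost when any of 15 of the 20 libraries compared was left out, and the Het lithium call of Asns with any of 11. That of Slc1a1 was lost without Het vehicle female replicate 3, and the Abat call without Het fluoxetine female replicate 5, Het fluoxetine male replicate 5 or Het vehicle male replicate 3. Without the 16 bulb-rich libraries the calls of Folh1 and Rimklb for fluoxetine in Het, of Oat and Asns for lithium in Het, and of Aldh18a1, Rimklb and Slc7a11 for lithium in WT were lost. The Abat call was also lost with bulb and oligodendrocyte scores, with quantile normalization (0.09) and with rescaling to 1 total. With astrocyte and endothelial scores the lithium calls in Het of Asns (0.09), Oat (-0.085) and Slc1a1 (0.05) were lost, and when only the compared groups were fitted those of Asns, Bcat1 and Slc1a1.

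The sexes gave the same picture for Glud1. It was called lower in Het in each sex under each treatment, with log2 differences of -0.42 and -0.47 under fluoxetine, -0.45 and -0.49 under lithium and -0.33 and -0.33 under vehicle in females and males in turn. The share of all genes called in females and males was 0.0393% and 1.18% under fluoxetine, 0.0168% and 0.00562% under lithium, and 0.0225% and 0.0168% under vehicle. Under vehicle the call rests on few libraries: leaving out any of 9 of the 10 libraries compared lost it in each sex, and leaving out the 1 WT library in the Het range made the difference larger. For fluoxetine in Het, Got1 was called in males (0.22 ± 0.06) and in females (0.18 ± 0.06), beside 22.7% and 15.1% of all genes, and Got2 in males (0.19 ± 0.04). Leaving out any of 6 of the 10 libraries compared lost the Got1 call in females, as did 3 other settings. For lithium in Het, Got2 was called in males (0.21 ± 0.04, beside 2% of all genes), where 5 Het lithium libraries lay above all 5 Het vehicle libraries. None of these 3 calls in males held without the 16 bulb-rich libraries, where the log2 differences were 0.14 for Got1 and 0.15 for Got2 under fluoxetine and 0.14 for Got2 under lithium. No member was called between males and females over all groups (0.14% of all genes were), and none in the interactions of sex with genotype, fluoxetine or lithium, in which no gene of the 17807 was called.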

How the data were processed

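The libraries were made with the TruSeq Stranded mRNA kit, per the labels' protocols. Per the submitters' processing notes the build was GRCm38 and the tools were DESeq2 1.19.11, Salmon 0.11.2 and R 3.6.0, and what each tool did is not given in the sources used here. The deposited signal values are normalized counts for 18088 genes in 60 libraries: in each library they were whole reads divided by 1 factor (0.818 to 1.072), and 100% of the values came out whole to within 0.001. The recovered reads of all 60 libraries were used only for the edgeR and DESeq2 alternatives. Gene IDs were named from GENCODE M21 (18077 of 18088).

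Values were tested as log2(value + 1) with limma 3.58.1 in R 4.3.3, in 1 fit of 12 group means over all 60 libraries, with a trend of the variance on the mean. Genes with at least 10 normalized counts in at least 5 libraries were tested, 17807 in all. Comparisons over both sexes average the 2 sexes. Tests are two-sided, p-values were adjusted by Benjamini and Hochberg over all genes of a comparison, and a gene was called when its adjusted p was under 0.05. A fold change on this scale slightly understates that of genes near the floor. The limma fit was tested on simulated counts for fluoxetine against vehicle in Het, with 50 genes changed at each size of change. It recovered 46% of those with a log2 change of 0.2 in size, 82% at 0.4, 96% at 0.8 and 98% at 1.6. Of the 170 genes called there, 9 were unchanged. Levels per kb use merged exon lengths.

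Alternatives were a pseudocount of 0.5 or 10, no filter, quantile normalization, rescaling to 1 total, edgeR 4.0.16 and DESeq2 1.42.0, only the groups compared, the replicate number as a block, marker scores as covariates, and leaving out 16 or 3 libraries or each in turn. The astrocyte and endothelial covariates and the leaving out of the 3 libraries were chosen after seeing the data. Marker scores are means of centred log2 values. Members and gene lists were chosen with earlier results of these data known. In each pathway list, the 3 genes with the lowest p among those called were named per comparison; the shuttle genes, the genes compared in the 3 libraries and a few calls of those genes in other comparisons were chosen after their values were seen.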

Additional observations from a re-analysis of the deposited data

Results flagged for a closer look

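In groups of 5 libraries of 1 genotype, treatment and sex, a library was picked out when its gap to the nearest of the others, divided by the range of the group, was over 0.71 (Dixon's test). This picked out 12 of 108 groups of values of the 9 genes, where chance gives about 1 in 20.

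Glud1 stood apart in 3 libraries, given in normalized counts. Het fluoxetine female replicate 2 had 6419.0, where the other 4 had 4704.3 to 4999.7. WT vehicle female replicate 1 had 5176.8, where the others had 6595.8 to 6774.1, and WT vehicle male replicate 4 had 4841.9, where the others had 6591.6 to 7044.4. These are the 3 libraries in the range of the other genotype.

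WT vehicle male replicate 5 was high in all 3 astrocyte members. It had 47657.5 normalized counts of Glul against 39233.1 to 41541.2 in the other 4 libraries, 125606.5 of Slc1a2 against 95667.9 to 102783.7, and 26601.5 of Slc1a3 against 19737.2 to 20671.6.

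The other 6 libraries stood apart in 1 gene each. Got2 was 6419.6 in Het vehicle male replicate 3 (others 5537.8 to 5767.0), and Slc1a2 was 89958.3 in WT lithium male replicate 4 (others 99386.5 to 102382.2). Slc17a7 was 36359.9 in Het lithium female replicate 4 (others 48917.1 to 51641.3), and Gad1 was 10793.4 in WT lithium male replicate 2 (others 8354.5 to 8783.9). Gad2 was 7377.9 in WT fluoxetine male replicate 3 (others 4826.3 to 5398.7) and 7303.5 in WT lithium female replicate 4 (others 5206.3 to 5779.4).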

How the results depend on the processing

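No direction of a called member, pathway gene or neighbor reversed. Of the 9 members, the number called changed as follows, and the cause was not tested. Without the 16 libraries highest in bulb markers it was 0 for Het minus WT under vehicle (1 in the report). For Het minus WT under fluoxetine it was 2 with edgeR and with DESeq2 (1 in the report). For fluoxetine in WT it was 1 with DESeq2 and with only the groups compared, and 2 with astrocyte and endothelial scores (0 in the report). For fluoxetine in Het it was 4 with those scores (2 in the report). For lithium in Het it was 1 with those scores, with bulb and oligodendrocyte scores, and without the 16 libraries (3 in the report). Leaving out 1 library at a time gave 1 to 2 for Het minus WT under fluoxetine, 0 to 1 for fluoxetine in WT, 2 to 3 for fluoxetine in Het and 1 to 4 for lithium in Het, with 1 when Het vehicle female replicate 3 was left out.

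Over all genes, Het minus WT under fluoxetine had 1305 calls, against 111 with only the groups compared, 136 without the 16 libraries and 375 with astrocyte and endothelial scores; under vehicle 10, against 5 to 19; under lithium 7, against 4 to 11; over all treatments 274, against 173 without the 3 libraries. For fluoxetine, 5853 calls in Het became 3152 without the 16, and 1461 in WT ranged from 770 to 2813. For lithium, 1627 in Het ranged down to 577 and 529 in WT from 179 to 1294. Rescaling to 1 total gave 171 higher of 282 over all treatments (111 of 274 in the report), 2027 of 5566 for fluoxetine in Het (3003 of 5853) and 387 of 1415 for fluoxetine in WT (560 of 1461, and 800 of 1646 with quantile normalization).

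With the replicate block, 2 members were called for fluoxetine in Het and 5882 genes in all, and the number of members called was as in the report in all 8 comparisons over both sexes. Same-numbered libraries had correlations of -0.276 to 0.295 (median 0.001) over 330 pairs, and the median for other numbers was -0.002. With 5 numbers to choose from, 18 of 60 libraries correlated best with their own number. Whether some libraries were paired by number was not tested. The member calls lost when 1 library was left out were Glud1 in each sex under vehicle, Slc1a3 and Got1 for lithium in Het, and Got1 for fluoxetine in Het females.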
